A study of Mus musculus with 7 samples.

Results

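Adult mouse stomach was compared with adult mouse esophagus, 2 of the 7 samples of the series, each measured on 1 one-colour microarray. Total RNA of the organs had been taken fresh from ICR mice, an outbred laboratory stock, and the labels name no genetic change and no treatment for either organ. They do not give the age or sex of the animals, the number of animals behind each RNA, or which regions of the stomach and esophagus were sampled. The series was built around stomach-type tissue grown from embryonic stem cells (culture days 42 and 46), with adult stomach, esophagus, lung and intestine and embryonic day 9.5 stomach as controls. The 4 adult organs share 1 slide, stomach at position 3 and esophagus at position 1, and lung and intestine are used below only to show what stomach and esophagus share. Of 16995 named genes, 14868 were well above background on at least 1 of the 2 arrays and make up the comparison. With 1 array per organ there was no test and no replicate error, so every difference is a description of these 2 arrays, and the number of arrays limits its precision.

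The mouse stomach joins a glandular part, whose pits and glands hold mucous, acid-secreting, enzyme-secreting and hormone-secreting cells, to a forestomach lined by a keratinised stratified squamous epithelium. The mouse esophagus is lined by an epithelium of the same squamous kind, in which basal cells divide and their daughters move up, switch keratins and build a cornified envelope. Its outer muscle coat is largely striated, whereas the wall of the stomach is moved by smooth muscle.

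A level below is the log2 intensity of a gene's probe minus the 75th percentile of its array, so 0 is that percentile itself, and a difference is the level in stomach minus the level in esophagus. The 2 organs ranked the genes much alike, with a Spearman correlation of 0.874 across 15173 genes, a description over genes that are not independent replicates. The other 5 pairs of adult organs gave between 0.774 and 0.849. Above background on both arrays were 13879 genes, on the stomach array alone 610 and on the esophagus array alone 379. For a gene not above background on one array, the difference is a bound, computed from the lowest signal flagged above background there (or the gene's own signal where that was higher), and is written "at least". At least 4-fold higher in stomach were 939 genes (6.32%) and at least 4-fold lower 789 (5.31%), while 10080 (67.8%) were above background on both arrays and within 2-fold. Spots of a repeated probe varied by a median standard deviation of 0.081 in stomach and 0.082 in esophagus, and different probes of a gene by 0.458 in the difference. Of 562 further probes of genes at least 4-fold apart, 547 pointed the same way as the probe used.

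**Figure D1:**
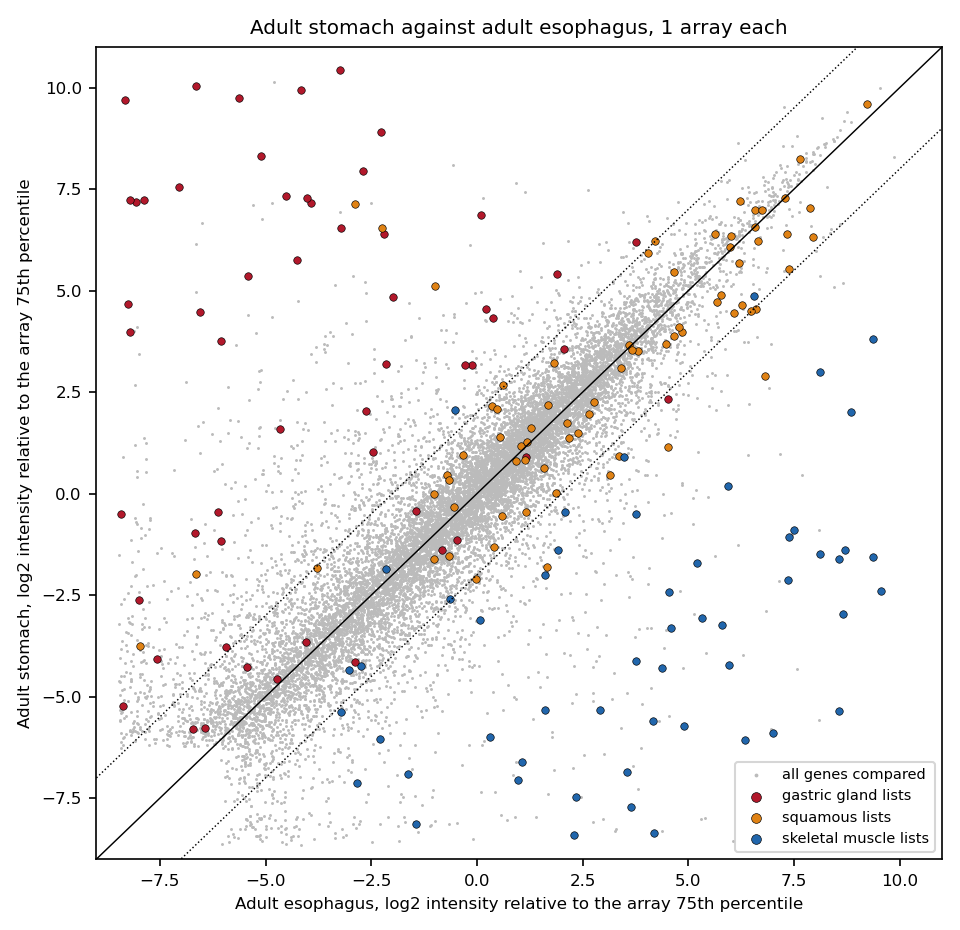
Level of each of the 14868 genes in adult stomach (vertical axis) against adult esophagus (horizontal axis), both as log2 intensity relative to the array's 75th percentile, 1 array each. The solid line marks equal levels and the dotted lines a 4-fold difference. Most gastric gland genes lie above the lines, most skeletal muscle genes below them, and most squamous genes between them.

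The promoters of 6 genes stand for the 3 patterns of this comparison, and were picked after the values were seen: Gkn2, a gene found in stomach alone, Myl1, a striated muscle gene of esophagus, Krtdap and Lor, squamous genes shared by both, and Sprr2d and Sprr1b, 2 squamous genes of one family that differ in opposite directions. Each runs from 250 bases before to 50 after the gene's start in RefSeq (GRCm38.p6), 5′ to 3′ on the gene's strand. Only windows that hold the marked motif were printed, so its presence in these 6 is by selection. Capitals mark AGATAA, a form of the site bound by GATA factors, in Gkn2 (chr6:87373115-87373414, plus strand). They mark CAGCTG, an E-box of the kind bound by myogenic factors, in Myl1 (chr1:66945007-66945306, minus strand). In the other 4 they mark TGANTCA, with any base at N, a loose form of the AP-1 site. These are Krtdap (chr7:30787655-30787954, plus strand), Lor (chr3:92083093-92083392, minus strand), Sprr2d (chr3:92338890-92339189, plus strand) and Sprr1b (chr3:92438730-92439029, minus strand). The match reads TGAGTCA, an AP-1 site, in Krtdap, Lor and Sprr2d, but TGAATCA in Sprr1b.
Gkn2: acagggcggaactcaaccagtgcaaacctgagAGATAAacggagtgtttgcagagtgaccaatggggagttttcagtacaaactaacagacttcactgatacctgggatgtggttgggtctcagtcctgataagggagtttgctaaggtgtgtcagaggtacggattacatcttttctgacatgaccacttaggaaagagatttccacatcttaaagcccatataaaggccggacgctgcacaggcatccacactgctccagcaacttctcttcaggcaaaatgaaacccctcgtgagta
Myl1: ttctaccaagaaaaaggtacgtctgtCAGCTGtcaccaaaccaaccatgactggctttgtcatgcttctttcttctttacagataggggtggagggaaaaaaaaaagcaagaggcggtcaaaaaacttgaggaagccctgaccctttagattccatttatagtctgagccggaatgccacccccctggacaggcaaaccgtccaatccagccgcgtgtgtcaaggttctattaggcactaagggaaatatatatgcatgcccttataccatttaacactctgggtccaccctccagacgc
Krtdap: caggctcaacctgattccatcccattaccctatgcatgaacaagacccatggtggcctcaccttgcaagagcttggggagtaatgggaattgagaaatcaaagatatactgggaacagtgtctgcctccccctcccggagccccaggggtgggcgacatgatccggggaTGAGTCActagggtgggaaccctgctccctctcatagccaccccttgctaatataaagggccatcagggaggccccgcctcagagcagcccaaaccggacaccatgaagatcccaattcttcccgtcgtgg
Lor: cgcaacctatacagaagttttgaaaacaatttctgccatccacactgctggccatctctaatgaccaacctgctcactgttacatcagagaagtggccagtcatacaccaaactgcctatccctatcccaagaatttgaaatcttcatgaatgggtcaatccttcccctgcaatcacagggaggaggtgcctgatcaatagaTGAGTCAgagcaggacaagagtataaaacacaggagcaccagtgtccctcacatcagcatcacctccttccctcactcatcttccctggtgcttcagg
Sprr2d: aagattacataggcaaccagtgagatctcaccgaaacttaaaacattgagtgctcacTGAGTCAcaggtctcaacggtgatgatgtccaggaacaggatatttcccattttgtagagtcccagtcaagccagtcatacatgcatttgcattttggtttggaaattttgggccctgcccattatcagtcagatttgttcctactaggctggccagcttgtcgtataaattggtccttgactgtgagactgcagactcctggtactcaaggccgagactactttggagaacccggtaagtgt
Sprr1b: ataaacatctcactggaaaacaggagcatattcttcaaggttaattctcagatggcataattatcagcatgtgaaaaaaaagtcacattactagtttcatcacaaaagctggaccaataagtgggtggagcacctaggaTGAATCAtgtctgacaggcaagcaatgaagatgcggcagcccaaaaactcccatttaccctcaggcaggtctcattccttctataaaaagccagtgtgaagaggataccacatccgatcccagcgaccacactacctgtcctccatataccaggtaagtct

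Motif matches were counted on both strands of these windows, as letters only: a match is not a bound site. TGANTCA stood in 20 of 70 promoters of the squamous gene lists described below (28.6%) and in 28 of 119 promoters of genes shared by stomach and esophagus over lung and intestine (23.5%), against 7.81% of all 32851 promoters. CAGCTG stood in 21 of 53 promoters of the skeletal muscle lists (39.6%) and in 44.0% of 100 promoters of genes at least 64-fold lower in stomach, against 16.3% of all. AGATAA stood in 19.6% of 97 promoters of genes at least 64-fold higher in stomach, against 11.2% of all, and in 14.3% of 63 promoters of the gastric gland lists. For TGANTCA and AGATAA the share over promoters of the genes compared was lower still, 6.1% and 7.71%. A loose form of the site of MEF2, another family of muscle factors, was also counted, with any base allowed at its middle positions. It stood in 3.77% of the skeletal muscle promoters and in 9.0% of those of genes at least 64-fold lower, against 3.69% of all. These shares are of the loose form and do not show how often the MEF2 site itself occurred. The lists and the sets taken by difference have genes in common, so their shares are not separate observations. A gene may have several promoters, as in the skeletal muscle lists, where 53 promoters belonged to 43 genes. A promoter matching 1 of these motifs may match another, and the shares carry no test.

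Genes of the gastric glands were far higher in stomach. Taken over the 5 gland lists, 45 of 55 genes compared exceeded esophagus at least 2-fold and 2 fell short of it by as much, against 15.6% and 14.0% of all genes, and the median difference was 5.59 against 0.067 over all genes. Each later count of genes at least 2-fold higher or lower is to be read against these shares. In RNA of whole organs, fewer cells of a kind and less RNA per cell cannot be told apart.

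Surface mucous cells coat the stomach with mucus and trefoil peptides, and 14 of their 15 genes were at least 4-fold higher in stomach. Gkn2, a gastrokine, a small protein secreted by these cells, stood at 9.69 in stomach, against -8.33 in esophagus, where it was not above background, a difference of at least 15.78. Tff1, the trefoil peptide of the pits, stood at 10.44 in stomach and -3.24 in esophagus, a difference of 13.69. Muc5ac, the gel-forming mucin of the surface layer, stood at 7.94 in stomach and -2.68 in esophagus, and its probes gave differences between 5.51 and 10.63. All 3 were far higher in stomach by every probe read. Psca, a membrane-anchored surface protein, had 7.16 in stomach and -3.93 in esophagus. Anxa10, an annexin typical of gastric epithelium, and Vsig1, a junctional adhesion molecule, were above background in stomach alone, at 7.19 and 4.68, so their differences were at least 13.29 and 10.78. The exception was Gcnt1, which branches O-glycans, at -4.15 in stomach and -2.88 in esophagus. Of the 15 genes, 8 were also above background in esophagus, against 14258 of all 14868 genes compared, and these 8 stood at -0.11 or below.

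Mucous neck cells were less clearly set apart. Tff2, their trefoil peptide, stood at 8.31 in stomach and -5.1 in esophagus, a difference of 13.41. Wfdc2, a secreted protease inhibitor found in many epithelia, ran the other way, at 2.33 in stomach and 4.52 in esophagus. Aqp5, a water channel, and Cftr, a chloride channel, were within 2-fold, and Muc6 was not analysed here.

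Genes of the enzyme-secreting chief cells included the largest difference of the comparison, and 8 of the 9 were at least 2-fold higher in stomach. Pgc, the precursor of the protease pepsin C, stood at 10.04 in stomach and -6.64 in esophagus, where it was not above background, a difference of at least 16.14. Cblif, the intrinsic factor that carries vitamin B12, was likewise above background in stomach alone, at 7.24 against -7.87 in esophagus. Pla2g1b, a secreted phospholipase A2, had 9.75 in stomach and -5.62 in esophagus, and Chia1, an acidic chitinase, 8.91 in stomach and -2.26 in esophagus. Pga5, a pepsinogen, was higher by 6.83. Bhlha15, the transcription factor that builds up the secretory apparatus, was above background in stomach alone, and its probes disagreed in size, from 1.49 to 9.8. Lipf, gastric lipase, was low on both arrays, at -4.56 in stomach and -4.72 in esophagus.

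Parietal cells secrete hydrochloric acid, and 14 of their 15 genes were at least 2-fold higher in stomach. Both subunits of the proton pump were among them. Atp4a, the catalytic subunit, stood at 7.55 in stomach, against -7.05 and not above background in esophagus, a difference of at least 13.65. Atp4b, its partner, stood at 9.94 in stomach and -4.15 in esophagus, a difference of 14.09. Kcne2, a subunit of the potassium channel that recycles potassium for the pump, had 5.75 in stomach and -4.26 in esophagus. Car2, the carbonic anhydrase that supplies protons, was at 6.87 in stomach and 0.089 in esophagus, and Slc9a4, a sodium and proton exchanger, was higher by at least 5.64. The pump, its potassium channel and its proton supply therefore all stood higher in stomach, and only Aqp4, a water channel, was within 2-fold, at 0.91 in stomach and 1.15 in esophagus. Cckbr, the gastrin receptor, and Esrrg, a nuclear receptor, had probes that differed in size, from 1.17 to 5.39 and from 1.02 to 4.37.

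Among the genes of gastric hormone cells 8 of 12 were at least 2-fold higher in stomach and none at least 2-fold lower. Ghrl, which encodes the hunger hormone ghrelin, stood at 7.34 in stomach and -4.51 in esophagus, a difference of 11.85. Sst, the inhibitory peptide somatostatin, stood at 5.35 in stomach and -5.42 in esophagus. Chga, a granin of secretory granules, had 6.55 in stomach and -3.21 in esophagus. Hdc, which makes histamine, and Slc18a2, which loads it into vesicles, were higher by 3.44 and 3.49. Which cells or region of the stomach gave these signals was not tested. Gast, the hormone gastrin of the antrum, was low in both organs, at -3.67 in stomach and -4.05 in esophagus.

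**Figure D2:**
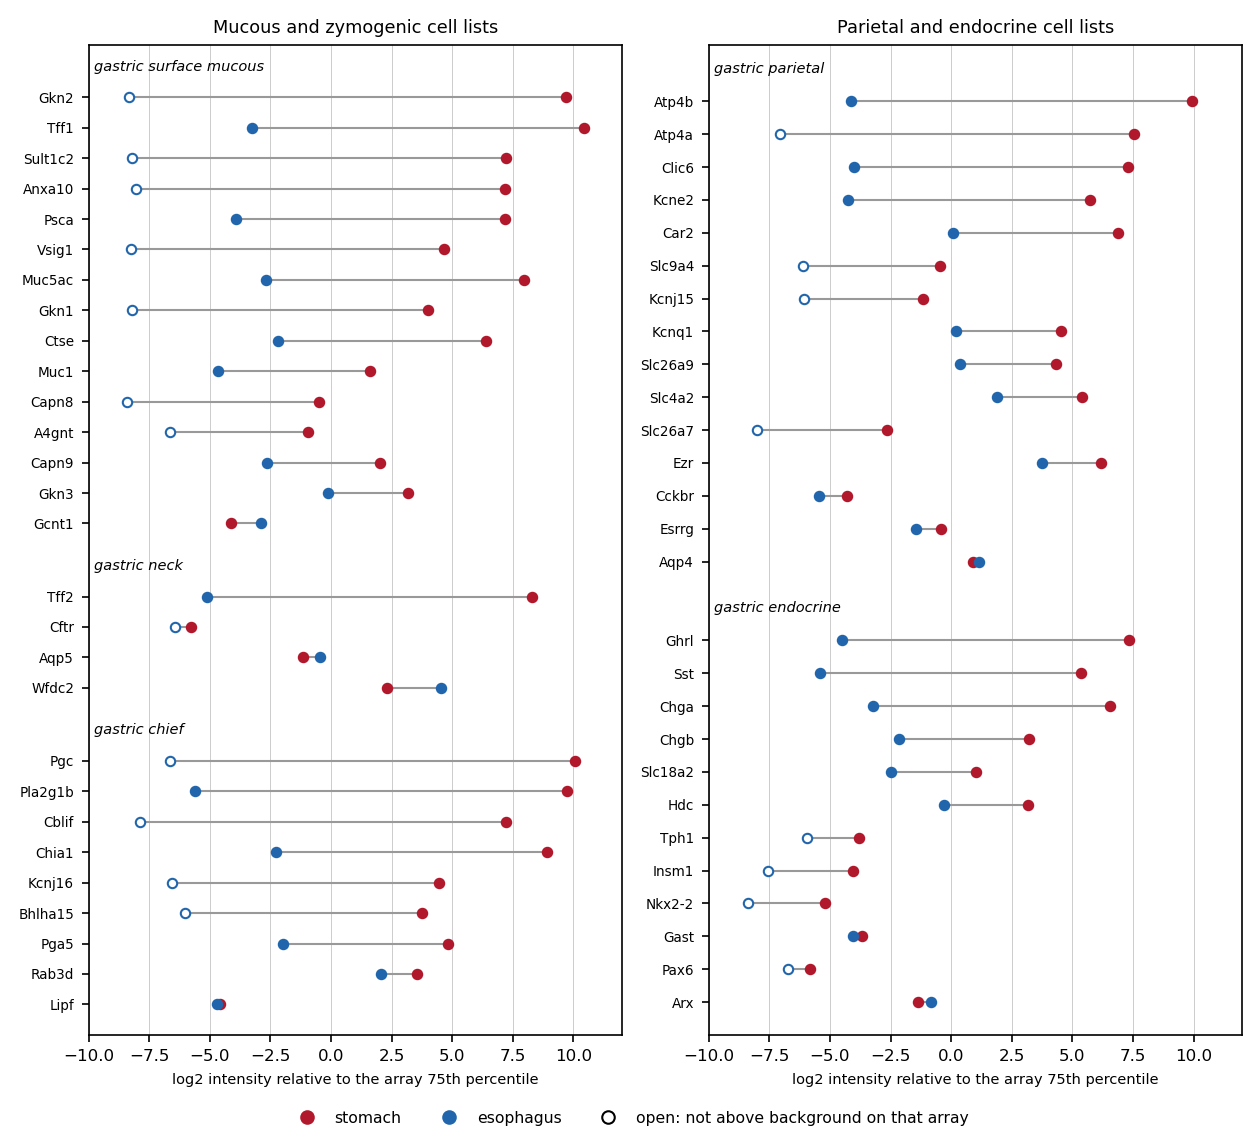
Levels of the gastric gland genes in adult stomach (red) and adult esophagus (blue), as log2 intensity relative to the array's 75th percentile, 1 array each, with open circles where a gene was not above background. In the surface mucous, chief and parietal lists most red points lie far to the right of the blue ones, while Gcnt1, Lipf and Aqp4 show little or no such gap.

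The simple, single-layered epithelium that bears these glands has its own keratins and junctions, and 11 of 14 of its genes were at least 2-fold higher in stomach. Krt8 stood at 8.1 in stomach and -0.57 in esophagus, and its partner Krt18 at 7.64 in stomach and 0.92 in esophagus, differences of 8.67 and 6.72. Krt20, a keratin of mature simple epithelium, was above background in stomach alone, at 3.66, a difference of at least 9.36. Cldn18, the claudin that seals gastric tight junctions, stood at 4.19 in stomach and -3.1 in esophagus. Claudins were not higher as a rule, since Cldn3 and Cldn4 differed by 0.085 and -0.33.

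Enzymes that build the sugar chains of mucins and the machinery of the secretory pathway went with the glands. In the list of mucin glycosylation 12 of 16 genes were at least 2-fold higher in stomach and none at least 2-fold lower. Gcnt3, which branches mucin O-glycans, was above background in stomach alone, at 1.2, a difference of at least 7.29, and the transferases Galnt3, Galnt6 and Galnt12, which add the first sugar, were higher by 4.12, 4.15 and 3.92. Of the secretory pathway 15 of 19 genes were at least 2-fold higher. Agr2, a folding factor of mucus-secreting cells, was above background in stomach alone, at 6.66 against -6.49 in esophagus, a difference of at least 12.75. The general chaperones differed less, such as Hyou1 by 1.57 and Canx by 0.24, and the list had a median of 1.46.

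Genes of stratified squamous epithelium were found in both organs. Over the 4 squamous lists 71 of 73 genes were above background on both arrays. So were 13879 of all 14868 genes compared, so detection on both arrays does not set the squamous genes apart. Within 2-fold were 43 of the 73, a smaller share than the 70.4% of all genes within 2-fold (bounds included), while 14 were at least 2-fold higher in stomach and 16 at least 2-fold lower. Their median difference was -0.29. The other 2 were above background in stomach alone, and none in esophagus alone.

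The cornified envelope, the protein shell that squamous cells assemble as they die, had 24 of 26 genes above background on both arrays and 17 within 2-fold. Each share was near that of all genes. Lor, the main envelope protein loricrin, stood at 9.59 in stomach and 9.23 in esophagus, a difference of 0.36. Krtdap, a secreted protein of differentiating keratinocytes, stood at 8.25 in stomach and 7.64 in esophagus, a difference of 0.61. Sprr3, a small proline-rich cross-linking protein, had 6.41 in stomach and 5.63 in esophagus. All 3 stood far above background, and in like measure, on both arrays. Sbsn, suprabasin, and Asprv1, the protease that processes filaggrin, differed by -0.004 and 0.24, and Crct1 and Calm4, genes of differentiating squamous cells, by -0.83 and -0.95.

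The small proline-rich family leaned to stomach, with 7 of 10 genes at least 2-fold higher, 1 at least 2-fold lower and a median of 2.46, counted as a family after the values were seen. Sprr2d stood at 5.12 in stomach and -0.99 in esophagus, a difference of 6.11, or 69.1-fold. Sprr1b, which lies in the same gene complex on chromosome 3, stood at -1.81 in stomach and 1.67 in esophagus, a difference of -3.48. Sprr1a was higher in stomach by 1.88. The Sprr2 genes are near-identical copies, so a probe may read several of them, and their sizes are uncertain. Ivl, involucrin, an early envelope protein, was above background in stomach alone, at -1.97, a difference of at least 4.13. Tgm3, a transglutaminase that cross-links the envelope, was lower in stomach, at 0.93 against 3.36 in esophagus.

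Keratins of the layers above the basal cells differed in kind. Krt1, the type II keratin of cornifying epidermis, stood at 7.14 in stomach and -2.89 in esophagus, a difference of 10.03, and Krt10, its type I partner, at 6.55 in stomach and -2.25 in esophagus, a difference of 8.79. Krt4 and Krt13, the pair of mucosal squamous epithelia, ran the other way. Krt4 stood at 4.55 in stomach and 6.61 in esophagus, and Krt13 at 4.5 in stomach and 6.48 in esophagus, differences of -2.06 and -1.98. Both members of each pair thus differed in the same direction, and all 4 genes were above background in both organs. Of the 11 keratins in this list 6 were at least 2-fold higher in stomach, among them Krt23 by 2.01, Krt84 by 1.96 and Krt16 by 1.18. Krt6a and Krt6b, near-identical copies whose probes may not tell them apart, differed by -0.86 and 0.99.

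Basal cell genes were lower in stomach or alike, with 6 of 16 at least 2-fold lower, none at least 2-fold higher and a median of -0.84. Krt15, a keratin of basal cells, stood at 2.89 in stomach and 6.82 in esophagus, a difference of -3.93. Col17a1, a collagen of hemidesmosomes, stood at 0.47 in stomach and 3.14 in esophagus, a difference of -2.68. Krt5 was at 6.31 in stomach and 7.94 in esophagus, and its partner Krt14 at 3.99 in stomach and 4.86 in esophagus. These 4 were all lower in stomach, but by amounts from -0.87 to -3.93. Trp63, the p63 transcription factor that defines the basal state, differed by -0.81, within 2-fold, as did the cell death effector Perp by 0.4. Another probe of Trp63 gave -1.35, more than 2-fold lower in stomach.

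Junction and surface genes of squamous cells gave a median of 0.04, with 13 of 20 within 2-fold, again near the share of all genes. Serpinb12, an intracellular protease inhibitor, stood at 6.08 in stomach and 5.99 in esophagus, and Ly6d, a surface marker of squamous cells, at 6.56 in stomach and 6.58 in esophagus. Klk7, a protease that loosens the outermost cells, was higher in stomach by 2.06, and Pkp1, a desmosomal plakophilin, lower by 1.63. The largest gap was in Serpinb3a, at 1.14 in stomach and 4.52 in esophagus, one of several near-identical copies.

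**Figure D3:**
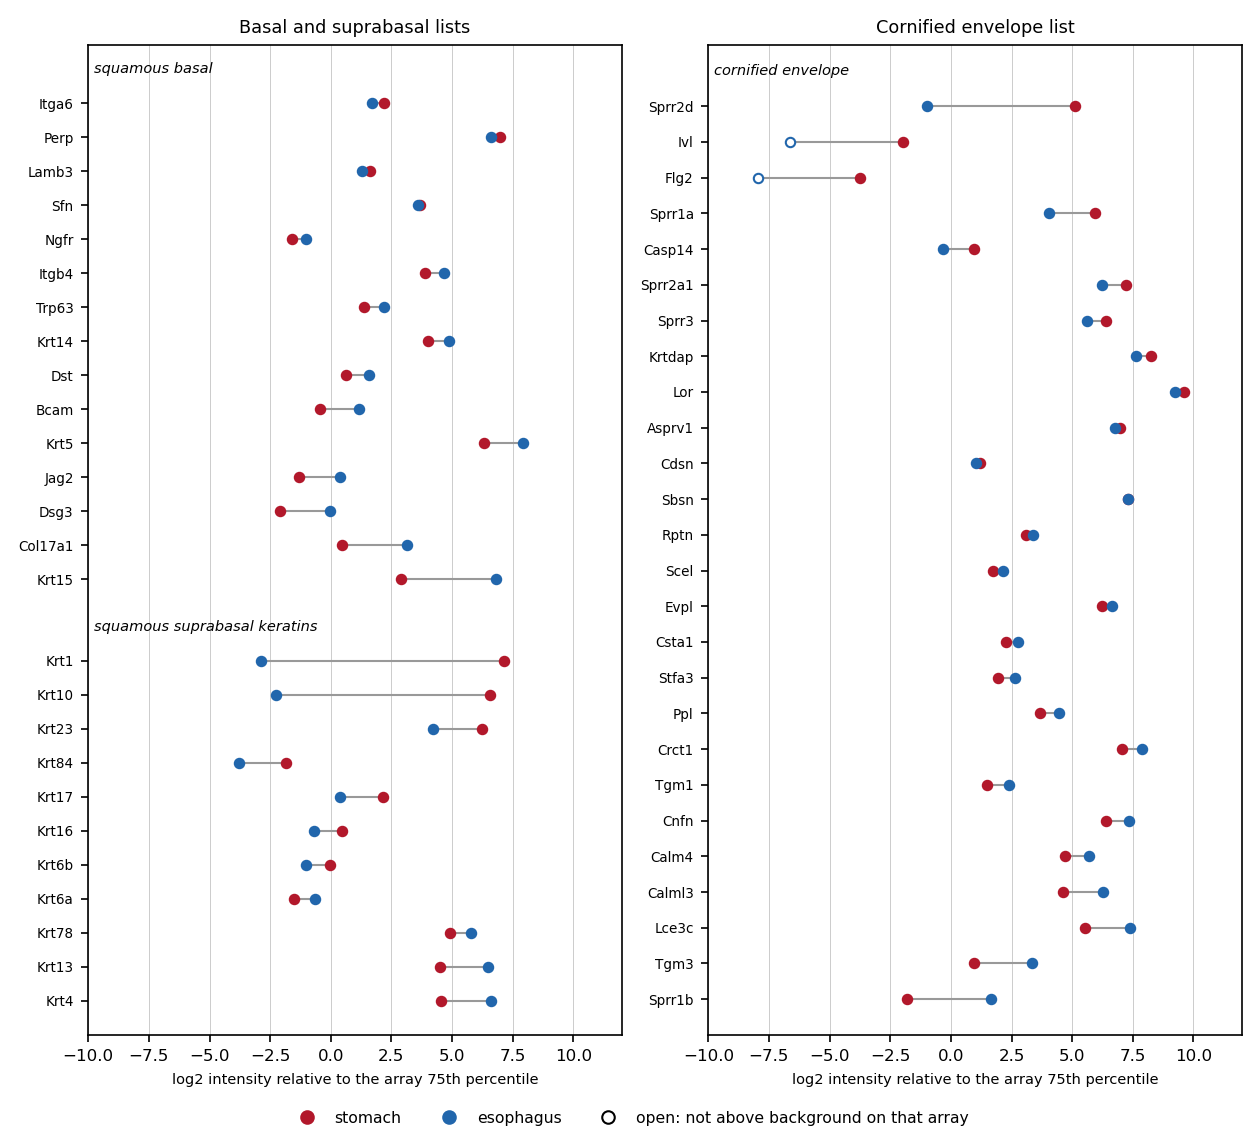
Levels of the squamous genes in adult stomach (red) and adult esophagus (blue), as log2 intensity relative to the array's 75th percentile, 1 array each, with open circles where a gene was not above background. Most cornified envelope genes, such as Lor, Krtdap and Sprr3, pair closely, while Krt1 and Krt10 lie far to the right in stomach and Krt15, Krt4, Krt13 and Sprr1b in esophagus.

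Stomach and esophagus also held a set of genes in common that stood lower in lung and intestine. At least 4-fold higher in both than in each of those organs, while within 2-fold of one another, were 141 genes, 1.02% of the 13879 above background in both. The same count for the other 5 pairs of adult organs, each set against its remaining 2 organs, ran between 24 and 96. Of the 141 genes, 33 were in the 4 squamous lists or the list of squamous transcription factors described below. The 4 lists held 71 and the factor list 21 of the 13879 genes. Of the 141, 36 were at least 64-fold above both other organs and 35 were above background in neither of them. Krtdap ranked farthest above lung and intestine, at 8.25 in stomach and 7.64 in esophagus against -3.85 in lung and -6.17 in intestine. For a gene above background in neither lung nor intestine, such as Serpinb12, that distance is a bound, so the order is not exact. Serpinb12 had 6.08 in stomach and 5.99 in esophagus and was not above background in lung or intestine. Members of the late cornified envelope family followed, such as Lce1c with 6.5 in stomach and 5.66 in esophagus and Lce3f with 7.19 in stomach and 7.64 in esophagus, although its copies are alike enough to share signal. Mt4, the metallothionein of squamous epithelium, had 5.57 in stomach and 6.24 in esophagus against -4.72 in lung and -4.88 in intestine. Spink5, the inhibitor of skin kallikreins, had 5.45 in stomach and 4.65 in esophagus and was not above background in the other organs. Kprp, a keratinocyte proline-rich protein, Lypd3, a surface protein of squamous cells, and Cysrt1, a small protein that is cysteine-rich, were among the 15 farthest above lung and intestine as well. No gene of the skeletal or smooth muscle lists and 1 of the gastric gland lists was among the 141.

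**Figure D4:**
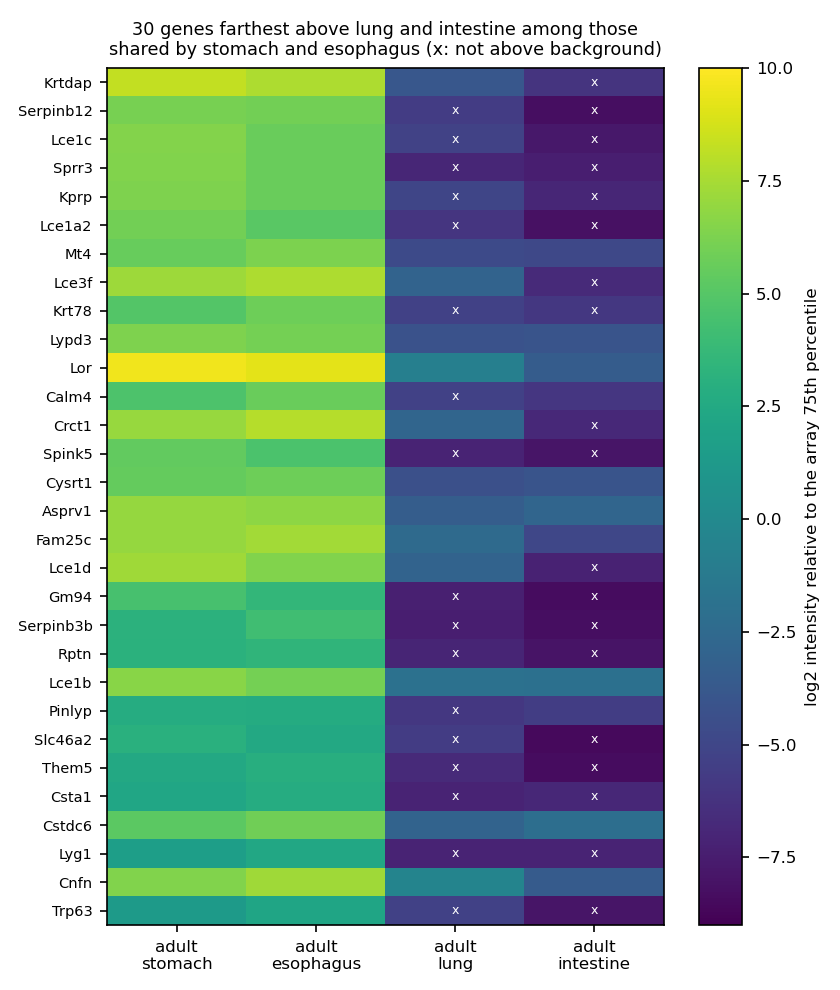
Levels in 4 adult organs, 1 array each, of the 30 genes farthest above lung and intestine among those shared by stomach and esophagus, coloured by log2 intensity relative to the array's 75th percentile. In every gene the columns for stomach and esophagus are alike and brighter than those for lung and intestine. A cross marks a lung or intestine level that was not above background.

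Transcription factors of glandular gut epithelium were at least 2-fold higher in stomach in 13 of 17 cases, with none at least 2-fold lower and a median of 3.61. Foxa2, a pioneer factor of endoderm, stood at 3.57 in stomach and -3.62 in esophagus, a difference of 7.19, and Foxa3 was above background in stomach alone, at 1.76, a difference of at least 7.86. Gata4 and Gata5, zinc finger factors of gut endoderm, were higher by 4.2 and 4.64, and Spdef, which drives mucous cell maturation, by at least 7.44. Hnf4a was above background in stomach alone, with probes from 1.12 to 6.65. Pdx1, the factor of antrum, duodenum and pancreas, was near background in both organs, at -5.83 in stomach and -5.61 in esophagus.

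Factors of squamous epithelium were within 2-fold in 14 of 21 cases, a share near the 70.4% of all genes. Pitx1, a homeobox factor, stood at 5.3 in stomach and 5.23 in esophagus, against -6.42 and not above background in lung and -0.96 in intestine. Sox2, which patterns the anterior foregut and marks both forestomach and esophagus, stood at -0.62 in stomach and -0.028 in esophagus. Grhl1, a grainyhead factor of barrier genes, and Hopx, a homeodomain cofactor, differed by 0.16 and -0.11. Others differed widely. Tbx1, a T-box factor of pharyngeal development, stood at -2.4 in stomach and 4.79 in esophagus, a difference of -7.2. Pax9, a paired-box factor of pharynx and esophagus, stood at -4.12 in stomach and 2.81 in esophagus, a difference of -6.93. Elf3, an epithelial ETS factor, went the other way, at 2.06 in stomach and -2.83 in esophagus. Tbx1 also acts in muscle precursors of the pharynx and esophagus, and in these whole-organ samples signal from epithelium and from muscle cannot be told apart.

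Mesenchymal factors were divided between the organs. Of 15, 4 were at least 2-fold higher in stomach and 6 at least 2-fold lower, against 15.6% and 14.0% of all genes. Barx1, which in the mouse embryo specifies the stomach from its mesenchyme, stood at 0.76 in stomach and -2.87 in esophagus, a difference of 3.62, and Hand2 was higher by 2.7. Prrx1, a factor of connective tissue fibroblasts, stood at -1.12 in stomach and 3.36 in esophagus, and Meox2 at -2.89 in stomach and 0.71 in esophagus. Tbx5 was above background in esophagus alone, lower in stomach by at least 5.3, although another probe gave -0.84. Foxf2 and Isl1 were alike, with differences of 0.19 and -0.28. The Hox genes, which mark position along the body, also differed in both directions: Hoxb7 by 3.87 and Hoxb5 by 2.04, but Hoxd8 by -4.51 and Hoxd9 by -2.2.

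**Figure D5:**
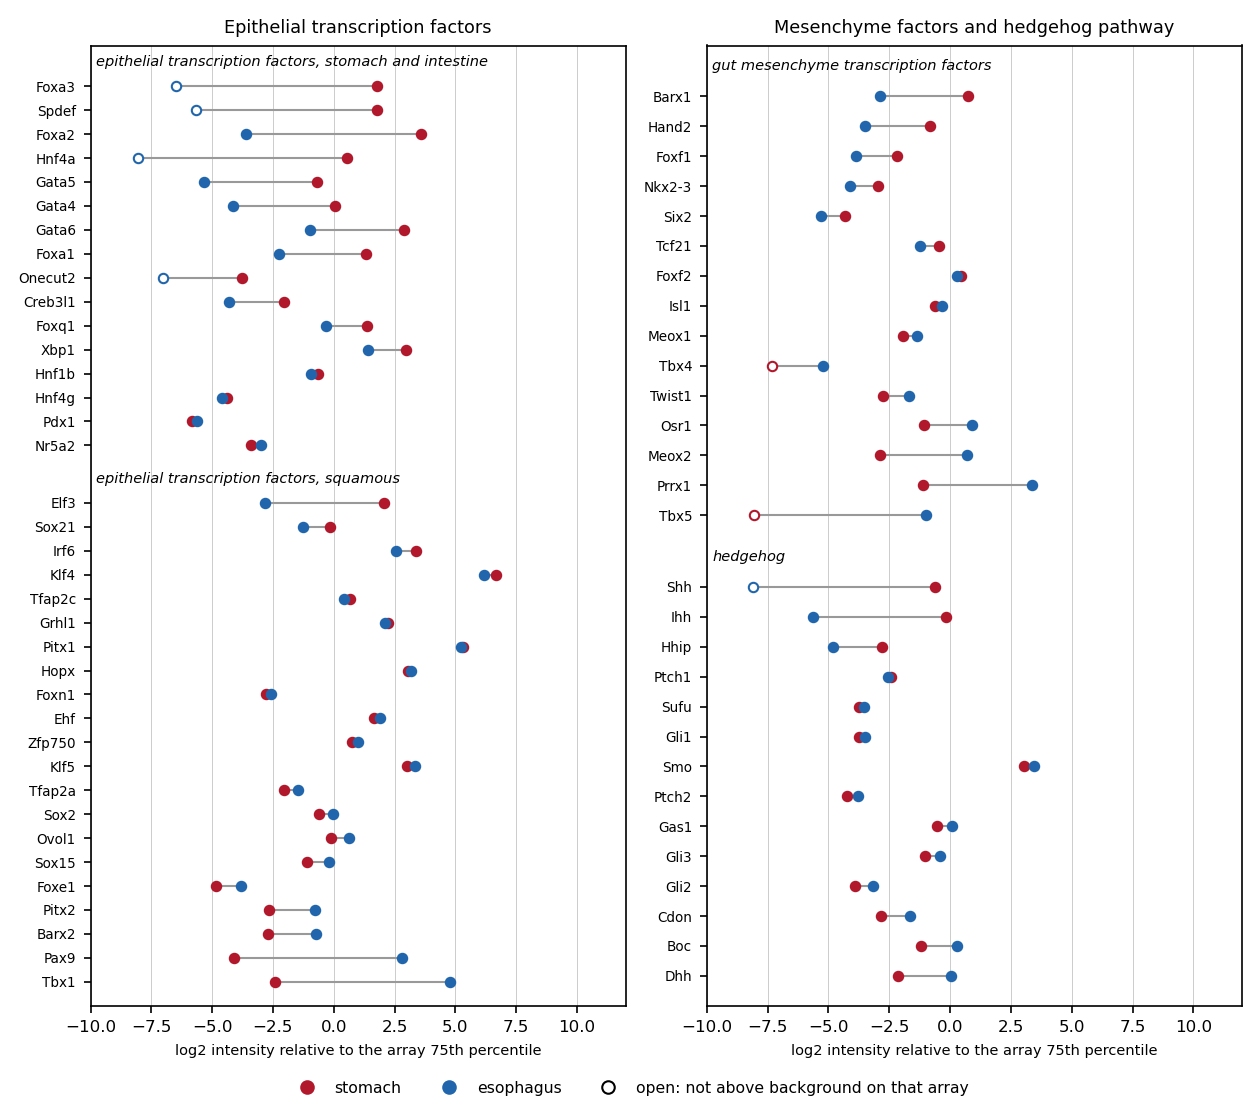
Levels of transcription factors and hedgehog pathway genes in adult stomach (red) and adult esophagus (blue), as log2 intensity relative to the array's 75th percentile, 1 array each, with open circles where a gene was not above background. Most factors of stomach and intestine lie to the right in stomach, most of those of squamous epithelium lie close together apart from Elf3, Pax9 and Tbx1, and of the hedgehog genes Shh and Ihh show the widest gaps.

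Among signalling genes, Shh and Ihh, the hedgehog ligands of gut epithelium, were both higher in stomach. Shh stood at -0.61 in stomach and -8.09 in esophagus, where it was not above background, a difference of at least 5.49, and Ihh at -0.18 in stomach and -5.65 in esophagus, a difference of 5.47. Dhh, the third ligand, was lower by 2.2. The receptors Ptch1 and Smo and the target Gli1 were within 2-fold, at 0.091, -0.43 and -0.24, while Hhip, a target that binds the ligands, was higher by 2.01. Over the whole pathway list, equal numbers of genes, 3 of 14 each, exceeded 2-fold in either direction, against 15.6% of all genes higher and 14.0% lower.

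In the BMP list 8 of 19 genes were at least 2-fold higher in stomach and 2 at least 2-fold lower, against 15.6% and 14.0% of all genes. The list had a median of 0.76. Id1, a direct target, stood at 3.44 in stomach and 0.44 in esophagus, a difference of 3.0. Id2 was higher by 2.31, and the inhibitory Smad6 and Smad7, which are induced targets too, by 2.74 and 2.03. The ligand Bmp2 was higher as well, at -0.044 in stomach and -2.21 in esophagus, whereas the receptor Bmpr1a and the antagonists Nog and Chrd differed by 0.27, -0.32 and 0.077.

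Of 27 genes of the Wnt pathway 9 were at least 2-fold lower in stomach and 4 at least 2-fold higher, against 14.0% and 15.6% of all genes. The list holds inhibitors as well as receptors and targets, so these counts give no direction of the pathway. The secreted inhibitors Dkk2 and Frzb stood at -3.37 and -4.28 in stomach and at 1.24 and -0.1 in esophagus, differences of -4.61 and -4.17. Lgr5, the R-spondin receptor that marks gastric stem cells, was higher in stomach by 2.52, its relative Lgr4 by 2.52 and the target Sp5 by 3.87. Among the ligands of the EGF receptor Areg and Btc were higher by 3.21 and 3.05 and Egf lower by 2.92, while the receptor Egfr differed by -0.32. No Notch gene was at least 2-fold higher in stomach and 6 of 16 were at least 2-fold lower, against the same shares of all genes. Among these 6 were Dll1 at -1.26 and Notch1 at -1.06.

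Skeletal muscle genes included the largest difference on the esophagus side. Over 4 lists 51 of 53 genes were at least 2-fold lower in stomach, 47 of them at least 4-fold lower, and the median was -7.35. All 20 genes of fast fibres and all 12 of slow fibres were among them, with medians of -8.62 and -8.14. Every gene of both fibre types was above background in esophagus, against 17 of the fast and 7 of the slow list in stomach. Of all 14868 genes compared, 14258 were above background in esophagus and 14489 in stomach.

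Of the thin filament, Tnnc2, the calcium-binding subunit of fast troponin, stood at -2.39 in stomach and 9.56 in esophagus, a difference of -11.96, and Acta1, skeletal alpha-actin, at 2.02 in stomach and 8.85 in esophagus. Of the myosin motor, Myl1, a fast light chain, stood at -2.98 in stomach and 8.65 in esophagus, and Myl3, a slow light chain, at -5.36 in stomach and 8.55 in esophagus, with probes from -13.91 to -8.45. Myh4, a fast heavy chain, was above background in esophagus alone, at 7.0, and Myh8, the perinatal heavy chain, stood at -1.57 in stomach and 9.36 in esophagus. Myosin heavy chains, like actins, are close copies, so that a probe may read a relative. Mb, myoglobin, the oxygen store of oxidative fibres, stood at -5.58 in stomach and 8.08 in esophagus, a difference of -13.66. Ttn, the giant spring protein titin, and Ryr1, the calcium release channel, were lower in stomach by 10.26 and 10.62.

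The regulators of muscle went with the fibres. Myog and Myf6, myogenic factors, were lower by at least 7.26 and by 8.22, and Chrna1, the receptor subunit of the nerve-muscle junction, by at least 8.62. Of the 16 genes of this list 14 were at least 2-fold lower. Chrnd, another subunit of that receptor, differed by 0.28, and Chrne, its adult subunit, stood at 2.06 in stomach and -0.52 in esophagus, but its probes gave 0.094 and 2.59. Enzymes that feed muscle contraction followed: Ckm, muscle creatine kinase, stood at -1.06 in stomach and 7.37 in esophagus, and Pgam2, a muscle phosphoglycerate mutase, at -2.89 in stomach and 6.83 in esophagus. Gapdh, often taken as a constant reference, stood at 6.32 in stomach and 8.19 in esophagus.

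Smooth muscle genes were above background on both arrays in all 14 cases, as were 13879 of all 14868 genes compared. Within 2-fold were 7, a smaller share than the 70.4% of all genes, and the median was 0.10. At least 2-fold higher in stomach were 3, and 4 were at least 2-fold lower. Of these 4, the only 1 at least 4-fold lower is also in the slow fibre list above. Myh11, the smooth muscle myosin heavy chain, stood at 4.9 in stomach and 3.96 in esophagus. Cnn1, calponin, and Tagln, transgelin, were higher in stomach by 1.88 and 1.32. Acta2, smooth muscle actin, stood at 7.8 in stomach and 6.77 in esophagus, but its probes ranged from -1.9 to 1.24, so its direction depended on the probe. Des, the intermediate filament of both muscle types, was lower in stomach by 1.7. Kit, which marks pacemaker cells of the gut and mast cells, stood at 0.41 in stomach and -2.79 in esophagus, while the pacemaker channel Ano1 differed by 0.67.

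Stromal and fat genes were lower in stomach. Of 20 fibroblast and matrix genes 11 were at least 2-fold lower and none at least 2-fold higher, such as Fbln2, a fibulin of elastic matrix, at 2.35 in stomach and 5.21 in esophagus, whereas Col1a1 and Lox differed by -0.27 and -0.033. Adipocyte genes were at least 2-fold lower in 8 of 11 cases. All 11 were above background on both arrays, as were 13879 of all 14868 genes compared. Their summed linear level was 52.8 in stomach and 142 in esophagus, in units of each array's 75th percentile. Adipoq, the fat hormone adiponectin, stood at -3.05 in stomach and 2.24 in esophagus. Endothelial genes were at least 2-fold lower in 7 of 14 cases, among them Vwf at -2.29 and Pecam1 at -1.52. The 4 erythroid genes compared were all lower in stomach, with a summed level of 35.4 in stomach and 370 in esophagus. Most of both sums came from Hba-a1, a globin, without which they were 1.29 in stomach and 22.8 in esophagus. Whether fat, vessels and blood carried along with either organ bear on the other differences was not tested.

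Immune genes differed by cell type. Mast cell genes were at least 2-fold higher in stomach in 6 of 7 cases, among them the mast cell proteases Mcpt1, above background in stomach alone with a difference of at least 3.83, and Mcpt4, at 2.99. Another probe of Mcpt4 gave 0.41, within 2-fold. Of 12 macrophage genes 5 were at least 2-fold lower, including Marco, a scavenger receptor, at -2.38, and Cd163 at -1.67. Antigen presentation was alike, with H2-Ab1 and Cd74 at 0.16 and 0.32. Jchain, the joining chain of secreted antibodies, and Pigr, which carries them across epithelium, were higher in stomach by 4.54 and 2.92. The other 7 genes of the B and plasma cell list did not reach 2-fold higher, the B cell surface proteins Ms4a1 and Cd79b differed by -2.39 and -1.69, and the list had a median of -0.32.

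Genes typical of neighbouring organs differed too. Of 16 genes of pancreatic acinar cells 13 were at least 2-fold higher in stomach. All 16 were above background there and 13 in esophagus, against 14489 and 14258 of all 14868 genes compared. Their summed level was 1170 in stomach and 2.81 in esophagus, nearly all of the stomach sum from 1 gene. Without it the sums were 52.3 in stomach and 2.78 in esophagus. That gene, Clps, the cofactor of pancreatic lipase, stood at 10.13 in stomach and -4.79 in esophagus, and Pnliprp1, a lipase relative, at 3.95 in stomach and -5.23 in esophagus. The carboxypeptidase Cpa1 was near the foot of the scale in both organs, at -5.56 in stomach and -5.2 in esophagus. The list was therefore uneven in stomach, and trypsin genes are close copies that a probe may read together. Of 11 genes of airway and lung 9 were at least 2-fold lower in stomach. Above background were 10 in stomach and all 11 in esophagus, each near the share of all genes. Sftpc, the surfactant protein of alveolar cells, stood at -0.74 in stomach and 5.12 in esophagus. Bpifb1, an antibacterial protein of airways, was the exception at 7.16 in stomach and -4.86 in esophagus. Of 12 hepatocyte genes 8 were at least 2-fold lower, such as Alb at -3.03, but Apoa1 was higher by 8.29. The part of tissue from such neighbours in these results was not tested.

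Respiratory chain and cell cycle genes were mostly within 2-fold, unlike those of creatine and sugar breakdown. Of 31 respiratory chain genes 29 were within 2-fold, with differences from -0.41 (Sdha) to 1.77 (Cox8a) and a median of 0.48. Of 26 creatine and glycolysis genes 9 were within 2-fold, 6 at least 2-fold higher in stomach and 11 at least 2-fold lower, among them Hk2, a hexokinase, at -3.84 and Pfkm, the muscle phosphofructokinase, at -4.31. Cox6a2, a muscle subunit of the respiratory chain outside the list above, differed by -11.88. Cell cycle genes were within 2-fold in 19 of 23 cases, with the replication factors Pcna and Mcm6 at 0.021 and -0.07 and the mitotic kinase Plk1 at 1.46. Adh7, the alcohol dehydrogenase of upper digestive mucosa that also oxidises retinol, stood at 0.55 in stomach and 0.46 in esophagus, and Cyp26b1, which degrades retinoic acid, differed by 0.044. Rarb, a retinoic acid receptor and target, was lower by 2.59. Of the circadian clock 6 of 14 genes were at least 2-fold lower and none at least 2-fold higher, among them Per1 at -1.19 and Nr1d1 at -1.24, while Arntl, which peaks in antiphase, was at 0.43. Ribosomal protein genes with strong signal, such as Rplp0 and Rps18, differed by 0.32 and 0.5.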

How the data were processed

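Per the labels, total RNA was labelled with Cy3 and hybridised to 4x44K one-colour arrays, and the extraction kit used for each organ is not given in the sources used here. The processed intensity of each spot was corrected for background by Agilent Feature Extraction 10.5.1.1, per the file headers. The authors also deposited 1 table of log2 values shifted to each array's 75th percentile, whose correlation with the levels computed here was 0.9999 in stomach and 0.9998 in esophagus.

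Control spots and outliers (80 in stomach, 243 in esophagus) were left out of 45018 spots per array, and no spot was saturated. Spots of a probe were averaged as log2 intensity, and the 75th percentile of the array, an intensity of 481.9 in stomach and 747.2 in esophagus, was taken off. A probe was taken as above background where a share of 0.5 or more of its spots carried the software's flag for that. Probes were named by accession (24367), synonym (45) or symbol (12) through a RefSeq table used for names alone, and 16750 unnamed probes were left out. Of several probes for a gene, that of highest mean on all 7 arrays was used. After scaling, 10 spike-in controls differed by a median of 0.08 (-0.03 to 0.80).

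The genes named were the 12 largest and 12 smallest differences above background on both arrays, the 6 largest bounds on each side, from each list as many as 6 of largest and 4 of smallest absolute difference, the 15 highest among genes within 2-fold, the 15 farthest above lung and intestine, and a fixed set, skipping clone names. Some list members are counted but neither named nor drawn, and are not reported here. Other genes named are said to have been chosen after their values were seen. The comparison, its members and the lists were chosen with earlier results of these data known. The values were recomputed with quantile normalization, median centring, the authors' table, normexp (limma 3.58.1), no filter, genes above background on both arrays, the mean over probes, the probe highest over the 2 arrays, and other thresholds. A list median or gene was taken as stable within the standard deviation between probes (0.458), a count within 1.5 times, and a share within its Wilson interval of 67.0% to 68.5%. That interval treats genes as independent, which they are not, so it served only as a limit for stability. The counting was tested on simulated data.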

Additional observations from a re-analysis of the deposited data

How the results depend on the processing

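Median centring, quantile normalization and the authors' deposited table left the counts, the share within 2-fold, the rank correlation (0.872 to 0.874) and the count of shared genes (146 to 149, against 141) close to the reported values, and shifted the median of all differences to between 0.042 and 0.158, against 0.067. Median centring gave 1009 genes higher and 738 lower at 4-fold. The normexp background correction, which adds an offset of 50 to every corrected intensity, gave 584 higher and 461 lower and a share within 2-fold of 74.4%. That share was 70.9% with no background filter and 72.6% over genes above background on both arrays. A 2-fold threshold gave 2313 higher and 2082 lower. The median of the surface mucous list was 7.96 with normexp, 10.63 with no filter, 7.42 over genes detected in both organs and 8.59 when probes were averaged. That of the chief list was 7.94 with normexp, 6.83 over genes detected in both organs and 8.11 when probes were averaged. That of the parietal list was 3.46 with normexp and 4.89 with no filter or with the probe highest over the 2 arrays. The fast fibre median was -9.19 with quantile normalization, -7.5 with normexp, -9.08 with no filter and -9.55 when probes were averaged, and the slow fibre median -6.31 with normexp and -6.95 over genes detected in both organs. No list median at least 2-fold from 0 changed direction in any of these. Of 207 genes named, none at least 2-fold apart changed direction under any alternative, 97 shifted by more than the spread between probes with normexp, 96 of them to a smaller difference, and 17 when probes were averaged. The cause of these shifts was not tested. No paired analysis was possible because each organ has 1 array. Genes not above background carry only bounds, which signal over background limits.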

Other observations

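Several genes outside the lists, chosen after their values were seen, stood far apart. Lypd8, a surface protein that keeps bacteria off the colon epithelium, had 6.77 in stomach and -5.09 in esophagus, and Lgals2, a galectin of gut epithelium, 6.94 in stomach and -3.23 in esophagus. Gsdma2, a gasdermin, was above background in stomach alone, at 4.98, a difference of at least 11.07, while its relative Gsdma differed by 0.013 and stood at 5.11 in stomach and 5.09 in esophagus. Among transcription factors of embryonic patterning, Tbx15 and Zic1 were above background in esophagus alone, at 1.78 and 1.4, and Eya1, a transcriptional cofactor, stood at -5.4 in stomach and 0.24 in esophagus. Sim2 was at -2.01 in stomach and 3.28 in esophagus.

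Gene families, again grouped after the values were seen, differed in their lean. Of 35 keratins 16 were at least 2-fold higher in stomach and 8 at least 2-fold lower, and Krt35, a keratin of hair, stood at -6.08 in stomach and 0.16 in esophagus. Of 14 late cornified envelope genes 8 were at least 2-fold higher in stomach, with a median of 1.32, whereas of 19 Serpinb protease inhibitors none was at least 2-fold higher and 8 were at least 2-fold lower, with a median of -0.95. Copies in both families are alike enough to share signal.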
